A study of Mus musculus with 12 samples.

Results

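Transcripts that mark the integrated stress response or encode hormones released by stressed muscle were followed in the tibialis anterior of mice lacking Smyd1 in their muscle fibers. The members were chosen by name, as *Atf4*, *Atf3*, *Ddit3*, *Trib3*, *Chac1*, *Asns*, *Fgf21*, *Gdf15*, *Sesn2* and *Hspa5*, and are 10 of the 23923 genes in the files. RNA was sequenced from 12 mice aged 6 weeks, 6 controls and 6 Smyd1 CKOs, on a mixed background labelled C57BL6/J;129S1/SvImJ. Controls were Myf6 cre/+; Smyd1 flox/+ and CKOs were Myf6 cre/+; Smyd1 flox/-, so all mice carried the cre allele, controls kept 1 wild-type *Smyd1* allele, and CKOs had a null allele beside the floxed one. According to the study's methods the cross also brought in a Rosa26 YFP reporter. The cre is expressed from the *Myf6* locus in differentiated muscle fibers, while the libraries were made from whole muscle, which also holds cells that the cre does not target.

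The integrated stress response starts when kinases that sense amino acid shortage, misfolded protein in the endoplasmic reticulum (ER), double-stranded RNA or lack of heme phosphorylate the translation factor eIF2alpha. General translation then drops while translation of *Atf4* mRNA rises, so that ATF4 protein can increase without any change in its mRNA, and ATF4 with its partners switches on genes for amino acid supply, for feedback and for cell death. In skeletal muscle under mitochondrial or protein-folding stress, the same program is known for releasing FGF21 and GDF15 into the blood. Smyd1 is a histone methyltransferase of striated muscle that also binds myosin, and the study calls its exact part in building myofibrils unclear.

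The promoters of several members hold an element that ATF4 is known to bind with C/EBP partners, and are shown because such genes are often read together as its targets. The windows are the RefSeq sequence of build GRCm38.p6 on the strand of the gene, all 10 members had an entry, and the 250 bases before the start site were searched. The C/EBP-ATF element was searched as TGATGNAA on both strands, and is in capitals with up to 20 bases on either side:
Atf3, chr1:191183416-191183463, minus strand: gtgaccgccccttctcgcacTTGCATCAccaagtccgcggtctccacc
Chac1, chr2:119351029-119351076, plus strand: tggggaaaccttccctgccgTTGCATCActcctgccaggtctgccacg
Asns, chr6:7693210-7693252, minus strand: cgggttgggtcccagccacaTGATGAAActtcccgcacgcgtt
Fgf21, chr7:45615602-45615649, minus strand: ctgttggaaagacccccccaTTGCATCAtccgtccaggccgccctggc

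The element spans positions -110 to -103 from the start site in *Atf3*, -193 to -186 in *Chac1*, -23 to -16 in *Asns* and -139 to -132 in *Fgf21*. In *Atf3*, *Chac1* and *Fgf21* it is the reverse complement of the searched letters, and the core of these matches reads alike. Of all 32851 promoters in the table, 1134 (3.45%) hold a match, against 4 of the 10 members. The promoter of *Hspa5* holds instead the ER stress element, searched on both strands as CCAAT and CCACG with 9 bases between them and not overlapping the other motif, which 37 promoters (0.113%) hold:
Hspa5, chr2:34772005-34772063, plus strand: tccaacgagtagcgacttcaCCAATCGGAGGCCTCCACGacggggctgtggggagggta

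It lies at -65 to -47. The letters of either motif were not in these windows of *Atf4*, *Ddit3*, *Trib3*, *Sesn2* or the 2 start sites of *Gdf15*. A match is a description of letters and not a measured binding site.

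Levels are given in FPKM, sequenced fragments scaled to transcript length and to the number of mapped reads, which compares genes per length. In controls the median level was 41.0 FPKM for *Atf4*, above 97.7% of the genes tested, and 30.1 FPKM for *Hspa5*, above 96.9%. *Ddit3* followed at 8.14 FPKM, *Chac1* at 3.03, *Atf3* at 1.55 and *Asns* at 0.547. *Sesn2* lay at 0.107 FPKM, above only 3.05% of the genes tested, and *Trib3* at 0.0556, while the medians of *Fgf21* and *Gdf15* were 0. The control ranges of neighbours in this order overlapped for *Atf4* and *Hspa5*, for *Chac1* and *Atf3*, and among the last 4 genes from *Sesn2* to *Gdf15*. They did not overlap between *Hspa5* and *Ddit3*, *Ddit3* and *Chac1*, *Atf3* and *Asns*, or *Asns* and *Sesn2*. The muscle held abundant mRNA for the transcription factor at the head of the response and for the ER chaperone, and little or none for the sestrin, the pseudokinase and both hormones.

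The members also differed in how much mice varied. Over the 12 mice the highest value was 22.7 times the lowest for *Chac1* and 13.3 times for *Atf3*, against 2.62 times for *Ddit3*, 2.0 for *Hspa5* and 1.89 for *Atf4*. The highest mouse was a CKO for *Chac1* and a control for *Atf3*.

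**Figure D1:**
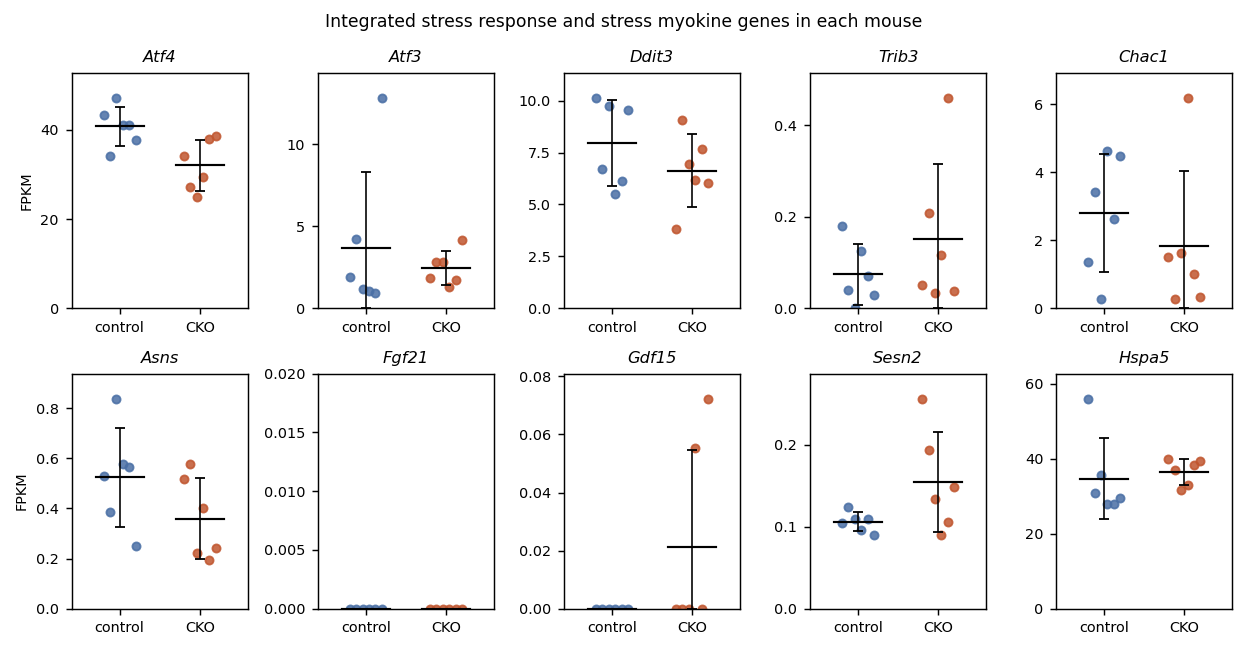
Level of each of the 10 genes in FPKM (vertical axis, linear, a scale of its own for each gene) in the 6 control and the 6 CKO mice. Points are mice, horizontal lines group means and bars the SD, cut at 0. The groups overlap in every panel, *Fgf21* is at 0 in all mice, and single mice stand far above their group for *Atf3* (a control at 12.8) and *Chac1* (a CKO at 6.17).

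Groups were compared with limma on log2(FPKM + 0.1), over the 12695 genes that reached 0.1 FPKM in 6 or more mice. P-values were adjusted over all of them, and the text prints limma's adjusted P beside the exact permutation test over all assignments of the mice (two-sided, on the same log2 values). Unadjusted limma P are given only as passing or not passing 0.05. *Trib3*, *Fgf21* and *Gdf15* fell outside this filter, so that 7 of the 10 members were tested. The FPKM carried a shift of whole libraries. The median log2 fold change of all genes was 0.18 and 77.9% of genes were positive, against 0.01 and 51.3% after the libraries were scaled by the median ratio of their genes. Each member is therefore given on both scales, as deposited and after scaling. Gene-level FPKM of *Smyd1*, which does not isolate the deleted part of the gene, was 37.4 ± 5.64 in controls and 34.1 ± 4.37 in CKOs (SD, n = 6 each) and checks no label (log2 fold change -0.13, limma's adjusted p = 0.545, and after scaling -0.32, past the unadjusted threshold with an adjusted p of 0.0799). Relative depth, read from the steps of the lowest values, spanned 1.0 to 1.54 in controls and 0.984 to 1.77 in CKOs (exact permutation test, two-sided, p = 0.526). Control 1 stood apart from the other controls, with 503.2 FPKM summed over fibroblast markers against 125.8 to 144.9, and 50.1 over macrophage markers against 12.5 to 21.4. The muscle fiber markers (such as *Acta1* and *Ckm*) summed to 26090 to 41560 FPKM in controls and 29130 to 34480 FPKM in CKOs. The labels do not give the sex of the mice, and the study's text says that, after an initial comparison of both sexes, its experiments used male tissue.

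*Atf4*, the transcription factor that the response turns on, was lower in CKOs. Its level was 43.4, 34.2, 47.0, 41.1, 41.0 and 37.7 FPKM in controls 1 to 6 and 34.2, 27.2, 24.9, 29.5, 37.9 and 38.7 FPKM in CKOs 1 to 6. All 6 CKOs lay below the control median and 3 of them below every control, but the groups overlapped as deposited. After scaling controls held 39.0 to 46.2 and CKOs 23.0 to 35.1, without overlap. The share of all genes without overlap was not counted on either scale. The means were 40.7 ± 4.44 and 32.1 ± 5.75 FPKM (SD, n = 6 each), a log2 fold change of -0.36 ± 0.12 (SE; limma, adjusted p = 0.136; exact permutation test, p = 0.0238). After scaling the log2 fold change was -0.54 ± 0.10, a fold of 0.686, with an adjusted p of 0.0183. *Atf4* thus passed the unadjusted threshold on both scales and the adjusted one after scaling. In whole muscle, less RNA per fiber cannot be told apart from a smaller share of the cells that hold it.

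*Ddit3* encodes CHOP, a factor of prolonged ER stress. Controls held 10.1, 6.72, 9.74, 5.49, 6.12 and 9.56 FPKM and CKOs 3.84, 9.06, 6.93, 6.16, 7.66 and 6.03. Controls 1, 3 and 6 exceeded every CKO, while controls 2, 4 and 5 lay within the CKO range. The log2 fold change was -0.27 ± 0.20 (95% interval -0.70 to 0.16, limma's adjusted p = 0.463, exact permutation p = 0.281). After scaling it was -0.45 ± 0.20, which passed the unadjusted threshold but not the adjusted one (adjusted p = 0.321).

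*Atf3*, a repressor and activator induced by many stresses, held 1.92, 4.25, 1.19, 1.08, 0.957 and 12.8 FPKM in controls and 1.83, 2.81, 2.81, 1.33, 1.76 and 4.17 FPKM in CKOs. Control 6 stood far above the other controls, and 5 of the 6 CKOs lay above the control median. Its log2 fold change was 0.01 ± 0.51 with an interval from -1.09 to 1.1 (limma, adjusted p = 0.997), and it turned to -0.17 after scaling. A difference of 2-fold either way lay within this interval.

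Among the targets, *Chac1*, which degrades glutathione, and *Asns*, which makes asparagine, both hold the element shown above. *Chac1* was at 1.36, 3.41, 0.280, 4.62, 2.64 and 4.48 FPKM in controls and 1.5, 0.273, 1.63, 6.17, 1.02 and 0.350 FPKM in CKOs. For *Chac1*, 5 of the 6 CKOs lay below the control median and CKO 4 above all controls. The estimate was -0.86 ± 0.68 on the log2 scale (interval -2.31 to 0.59, limma's adjusted p = 0.485, exact permutation p = 0.318) and -1.03 (adjusted p = 0.566) after scaling. Without CKO 4 it was -1.33 (adjusted p = 0.244), and without control 3, the lowest control, it was -1.36 (adjusted p = 0.216). Both of these passed the unadjusted threshold.

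*Asns* held 0.528, 0.385, 0.837, 0.575, 0.566 and 0.249 FPKM in controls and 0.516, 0.577, 0.222, 0.403, 0.195 and 0.244 FPKM in CKOs. CKOs 3, 5 and 6 lay below every control and 5 CKOs below the control median. Its log2 fold change was -0.45 ± 0.27 (interval -1.03 to 0.13, limma's adjusted p = 0.363, exact permutation p = 0.143). After scaling it was -0.60 ± 0.26, past the unadjusted threshold only (adjusted p = 0.323), and the value as deposited without control 6 also passed that threshold at -0.61 (adjusted p = 0.27).

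*Sesn2*, a sestrin that restrains mTORC1 when leucine is short, pointed the other way. It held 0.105, 0.124, 0.110, 0.0964, 0.110 and 0.0905 FPKM in controls and 0.256, 0.193, 0.134, 0.0901, 0.106 and 0.148 FPKM in CKOs. CKOs 1, 2, 3 and 6 exceeded every control and CKO 4 lay below them all. The estimate was 0.27 ± 0.21 on the log2 scale (interval -0.18 to 0.73, limma's adjusted p = 0.473, exact permutation p = 0.0714) and 0.17 after scaling.

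*Hspa5* encodes BiP, the main Hsp70 chaperone of the ER. Controls held 56.0, 30.9, 35.7, 28.0, 28.0 and 29.4 FPKM and CKOs 39.8, 36.9, 31.7, 33.0, 38.2 and 39.3 FPKM. All 6 CKOs lay above the control median, and only control 1 lay above all CKOs. Its log2 fold change was 0.12 ± 0.15 (interval -0.21 to 0.44, limma's adjusted p = 0.694, exact permutation p = 0.539), and -0.07 ± 0.11 after scaling. Without control 1, which also held the most fibroblast and macrophage marker RNA, it was 0.26 as deposited (limma, adjusted p = 0.0905) and passed the unadjusted threshold. In that fit 3416 of all genes were higher by unadjusted P, against 2300 with all mice.

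**Figure D2:**
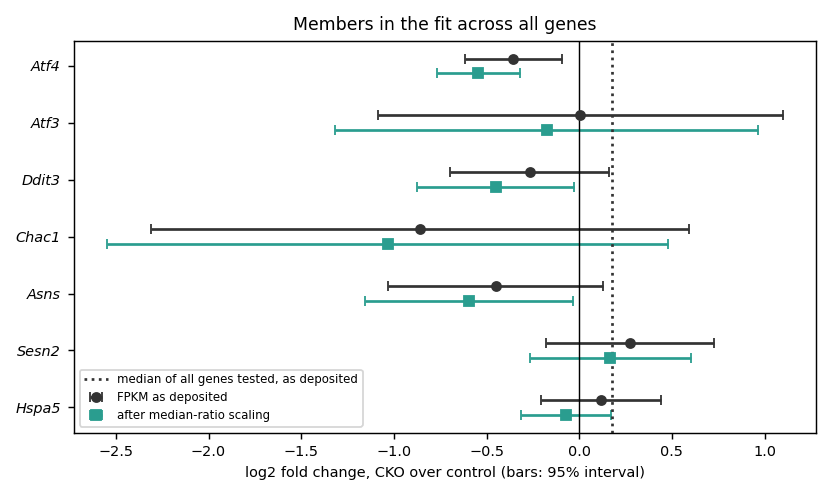
Log2 fold change of CKOs over controls (horizontal axis) with its 95% interval from limma for the 7 members tested, as deposited (dark circles) and after median-ratio scaling (green squares). The dotted line is the median of all genes as deposited, 0.18. The *Atf4* interval lies below 0 on both scales, and those of *Ddit3* and *Asns* only after scaling.

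The low values resolved into whole fragments. After relative depth was removed, the values of *Trib3*, *Asns*, *Gdf15* and *Sesn2* were whole multiples of a step to within 0.0202 of a step, and a step is read here as 1 fragment. For a gene with few values above 0, above all *Gdf15*, a step could also be several fragments. *Sesn2* rested on 3 to 4 fragments in each control and on 13, 6, 5, 4, 3 and 5 in CKOs 1 to 6, so that 13 of the 36 CKO fragments came from CKO 1. *Asns* rested on 8 to 22 fragments in controls and 4 to 19 in CKOs, 78 and 61 in all.

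*Trib3*, a pseudokinase that dampens ATF4 and CHOP, was at 0.180, 0.0402, 0, 0.125, 0.0709 and 0.0293 FPKM in controls and 0.0510, 0.208, 0.0347, 0.117, 0.458 and 0.0382 FPKM in CKOs. These are 4, 1, 0, 3, 2 and 1 fragments in controls and 2, 5, 1, 4, 10 and 1 in CKOs, 11 against 23 in all. CKO 5 gave 10 of the 23. The means were 0.0743 ± 0.0671 and 0.151 ± 0.165 FPKM (SD, n = 6 each), and the exact permutation test gave p = 0.355.

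The hormones were at the edge of detection. *Fgf21* was listed at 0 in all 12 mice. *Gdf15* was listed at 0 in all 6 controls and in 4 CKOs, and was 0.0552 FPKM in CKO 4 and 0.0723 FPKM in CKO 6, 1 step in each (exact permutation test, p = 0.455). At this depth a difference in either hormone was not detectable in muscle mRNA, and the blood was not measured here.

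**Figure D3:**
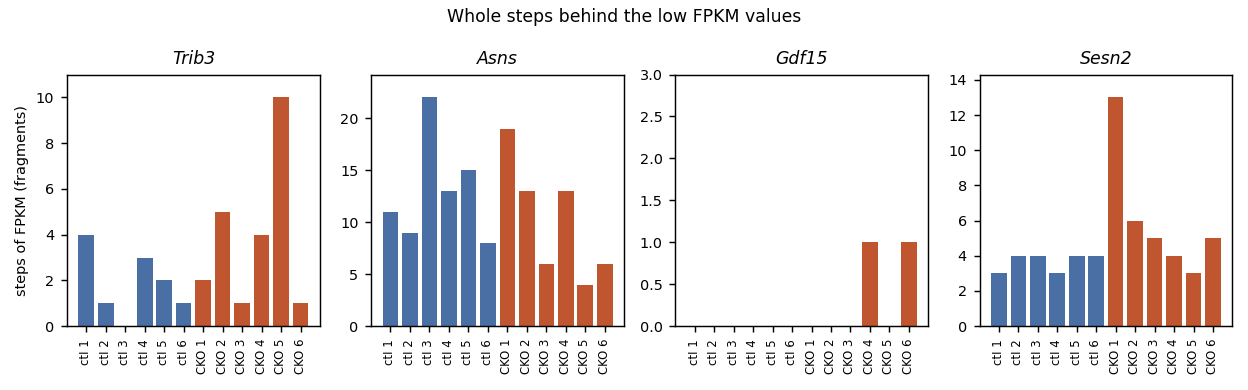
Whole steps, read as fragments, behind the FPKM of *Trib3*, *Asns*, *Gdf15* and *Sesn2* (vertical axis, from 0, a scale of its own for each gene) in controls (blue) and CKOs (orange), 1 bar per mouse. Single mice carry much of the CKO totals, with 13 of 36 fragments of *Sesn2* in CKO 1 and 10 of 23 of *Trib3* in CKO 5.

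Counted together, with unadjusted limma P and FPKM as deposited, no member (0 of 7) was called higher in CKOs, where 18.1% of all genes tested were. Calls in the lower direction numbered 1 (*Atf4*), where the share of all genes was 1.76%. With adjusted P no member was called either way, where 2.02% of all genes were called higher and 0.268% lower. After scaling, unadjusted P called 3 members lower (*Atf4*, *Ddit3* and *Asns*) and 0 higher, where the shares of all genes were 7.40% and 6.63%. With adjusted P after scaling, *Atf4* alone was called lower, where the share of all genes was 0.701%, and 0 members were called higher, where it was 0.764%. The median log2 fold change of the 7 members was -0.27, with 3 of 7 positive, beside 0.18 for all genes, and after scaling -0.45, with 1 of 7 positive, beside 0.01. The counts of every list that follows are to be read beside these shares of all genes, also where a share is not repeated.

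Upstream of *Atf4*, a list of 9 genes held the kinases and phosphatase subunits of eIF2alpha and other regulators (*Dnajc3*, *Nck1* and *Impact*). By unadjusted P 1 was called higher and 1 lower, with a median of 0.15, where the shares of all genes were 18.1% and 1.76%. After scaling 0 were higher and 3 lower, *Impact* among them, where the shares were 6.63% and 7.40%. *Ppp1r15a* encodes GADD34, the stress-induced subunit that brings a phosphatase to eIF2alpha and is itself a known target of ATF4. It held 3.21, 4.74, 4.09, 4.24, 4.05 and 3.58 FPKM in controls and 3.07, 1.8, 2.87, 2.54, 2.14 and 3.16 FPKM in CKOs. Every CKO lay below every control, with 3.16 FPKM in CKO 6 close to 3.21 FPKM in control 1. The share of all genes with such a separation was not counted. Its log2 fold change was -0.62 ± 0.15 (limma, adjusted p = 0.0433) and -0.80 ± 0.16 (adjusted p = 0.0205) after scaling, more negative on both scales than the estimate of every tested member but *Chac1*. When each mouse was left out in turn, all 12 unadjusted P stayed below 0.05, but the adjusted P ran from 0.0144 to 0.0977 and was below 0.05 in only 2 of the 12 fits. It was also above 0.05 with no filter on low values (0.0602) and without the intensity trend (0.0642). The double-stranded RNA kinase *Eif2ak2* was higher in CKOs by 0.40 ± 0.17 (limma, adjusted p = 0.195), and by 0.23 after scaling, where it did not pass the unadjusted threshold (adjusted p = 0.496).

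Of the 8 subunits of eIF2 and its exchange factor eIF2B, *Eif2s2*, the beta subunit, had -0.25 ± 0.11 (limma, adjusted p = 0.23), and -0.44 after scaling (adjusted p = 0.0392). Beside shares of all genes of 1.76% lower and 18.1% higher, the bZIP partners and relatives of ATF4 had 2 of 12 lower and 1 higher. After scaling 4 were lower and 0 higher, beside 7.40% and 6.63%. The 3 as deposited were *Junb* with -1.11 ± 0.36 (limma, adjusted p = 0.118), *Jun* with -0.61 ± 0.21 (adjusted p = 0.142) and *Nfe2l1* with 0.20 ± 0.09 (adjusted p = 0.234), the last of which was 0.01 after scaling. Both Jun genes are also immediate early genes.

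ATF4 is known for raising genes that make, import and charge amino acids. Of 12 tested genes of amino acid and one-carbon synthesis, a list apart from *Asns*, 0 passed the unadjusted threshold in either direction as deposited. After scaling 2 were lower. Of 7 amino acid transporters 0 passed as deposited and 1 was lower after scaling. The shares of all genes were 18.1% higher and 1.76% lower as deposited, and 7.40% lower after scaling. The 20 cytosolic aminoacyl-tRNA synthetases had 4 higher and 0 lower, with a median of 0.11, where 18.1% of all genes were higher and the median was 0.18. *Lars* rose by 0.44 ± 0.13 (limma, adjusted p = 0.0941), *Kars* by 0.40 ± 0.12 (adjusted p = 0.098) and *Tars* by 0.33 ± 0.14 (adjusted p = 0.202), each past the unadjusted threshold. After scaling the count was 2 higher, *Lars* and *Kars*, and 5 lower, where the shares of all genes were 6.63% and 7.40%. Among the 5 was *Aars* with -0.42 (limma, adjusted p = 0.028).

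Of the 16 other targets of ATF4 and CHOP, 4 were higher and 1 lower as deposited, where the shares of all genes were 18.1% and 1.76%. After scaling 2 were higher and 5 lower, where they were 6.63% and 7.40%. *Gadd45b*, a stress and growth arrest gene, had the largest decrease of the list. It held 5.26, 7.55, 3.88, 3.30, 3.91 and 7.02 FPKM in controls and 2.81, 3.99, 1.8, 3.40, 1.56 and 1.05 FPKM in CKOs, with a log2 fold change of -1.12 ± 0.29 (limma, adjusted p = 0.0613, exact permutation p = 0.0152). Its paralog *Gadd45a* went the other way, with 0.64 ± 0.21 (limma, adjusted p = 0.116). *Bbc3*, which encodes the cell death factor PUMA, was at 0 in 3 controls and between 0.0608 and 0.147 FPKM in the other 3, against 0.0908 to 0.381 FPKM in CKOs (log2 fold change 1.14 ± 0.32 on the log2(FPKM + 0.1) scale, limma's adjusted p = 0.0745). These values lie near the 0.1 FPKM of the filter. Most mice that reached it were CKOs, so that *Bbc3* was tested mainly through the group where it is high. The autophagy receptor *Sqstm1* had -0.29 as deposited, which did not pass the unadjusted threshold (limma, adjusted p = 0.263), and -0.48 after scaling (adjusted p = 0.0419).

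The ER chaperones and other genes of the unfolded protein response, the company of *Hspa5*, had 23 of 24 tested genes positive, with 5 higher, 0 lower and a median of 0.25, where 77.9% of all genes were positive, 18.1% higher and the median 0.18. *Dnajb11*, a cochaperone of BiP, was 6.83 to 10.3 FPKM in controls and 8.94 to 12.4 in CKOs, with 0.40 ± 0.12 (limma, adjusted p = 0.0844). The sensor *Atf6* held 3.28, 3.29, 3.71, 2.74, 3.38 and 2.96 FPKM in controls and 4.26, 3.76, 3.78, 3.86, 4.30 and 4.84 FPKM in CKOs. As deposited its groups did not overlap (0.35 ± 0.11, limma's adjusted p = 0.103). After scaling *Atf6* had 0.16 and did not pass the unadjusted threshold (limma, adjusted p = 0.503). How many of all genes did not overlap between groups was not counted. The disulfide isomerase *P4hb* had 0.45 ± 0.16 (limma, adjusted p = 0.137). After scaling, 18 of 24 were positive, 2 (*Dnajb11* and *P4hb*) were higher and the median was 0.08. Of all genes 51.3% were then positive and 6.63% higher, with a median of 0.01. The summed level of the list was 273.7 FPKM in control 1 and 142.8 to 185.6 in the other controls, against 188.0 to 222.6 in CKOs (exact permutation test, p = 0.227). Of 12 mitochondrial chaperones and proteases, 0 passed in either direction as deposited, where 18.1% of all genes were higher and 1.76% lower. After scaling 2 were lower, where 7.40% of all genes were.

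**Figure D4:**
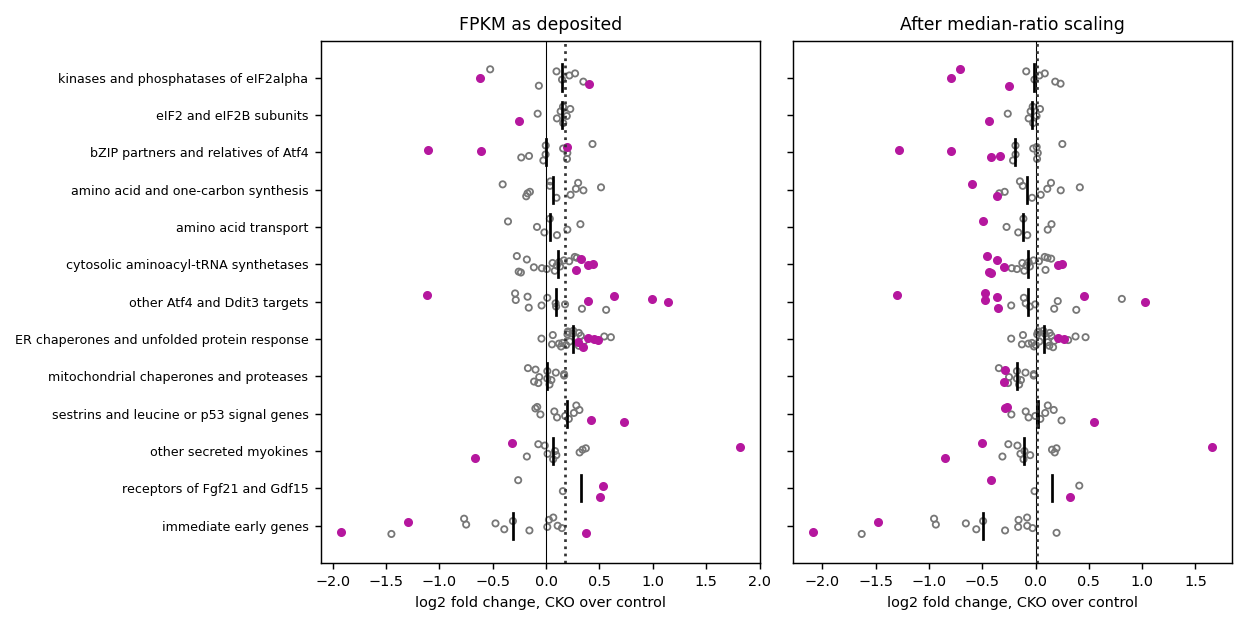
Log2 fold change of CKOs over controls (horizontal axis) for each tested gene of 13 lists, as deposited (left) and after median-ratio scaling (right). Filled points passed limma's unadjusted threshold, short bars are list medians and the dotted line is the median of all genes. The ER list lies almost wholly above 0 as deposited, and the immediate early genes reach furthest below it.

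The other sestrins were more abundant than *Sesn2*. *Sesn1*, a p53 target, held 4.01, 2.80, 2.97, 2.28, 2.35 and 2.65 FPKM in controls and 7.78, 4.03, 4.58, 3.89, 2.9 and 6.59 FPKM in CKOs. Only CKO 4 and CKO 5 lay within the control range. Its log2 fold change was 0.73 ± 0.21 (limma, adjusted p = 0.083) and 0.55 (adjusted p = 0.188) after scaling. *Sesn3* had 0.42 ± 0.15 (adjusted p = 0.136), and 0.24 after scaling (adjusted p = 0.455). Of the 12 genes of this list these 2 passed as deposited and 0 were lower, where the shares of all genes were 18.1% and 1.76%. After scaling 1 was higher and 2 lower, where they were 6.63% and 7.40%.

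The list of other secreted myokines had 13 tested genes, among them *Musk*, which encodes a receptor and not a secreted protein. Unadjusted P called 1 higher and 2 lower, where the shares of all genes were 18.1% and 1.76%. *Ostn* and *Fndc5* passed the adjusted threshold on both scales. *Fndc5*, the precursor of irisin, held 13.5, 14.6, 14.8, 14.7, 14.4 and 15.0 FPKM in controls and 9.6, 12.2, 6.72, 8.43, 10.6 and 8.01 FPKM in CKOs. The groups did not overlap, though the share of all genes without overlap was not counted. The log2 fold change was -0.66 ± 0.13 (limma, adjusted p = 0.0133). *Ostn*, which encodes musclin, a peptide released by muscle, held 0.219, 0.390, 0.752, 0.336, 0.115 and 0.474 FPKM in controls and 1.86, 1.75, 2.53, 0.943, 0.519 and 2.16 FPKM in CKOs. Only CKO 5 lay within the control range, and the log2 fold change was 1.82 ± 0.37 (adjusted p = 0.0188). *Vegfb*, a growth factor of vessels, had -0.32 ± 0.13 (limma, adjusted p = 0.187). After scaling they were -0.85 (adjusted p = 0.00794) for *Fndc5* and 1.66 (adjusted p = 0.0392) for *Ostn*.

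Of the 7 receptor genes listed for FGF21 and GDF15, 4 were tested and 2 were higher, where 18.1% of all genes were. *Klb*, *Gfral* and *Fgfr2* fell outside the filter. The mean of *Klb* was 0.022 FPKM in both groups, and that of *Gfral* 0.011 in controls and 0 in CKOs. *Fgfr1*, which FGF21 uses, was 2.71 to 4.90 FPKM in controls and 3.71 to 5.72 in CKOs (0.50 ± 0.15, limma's adjusted p = 0.0844). After scaling it was 0.32 (limma, adjusted p = 0.2185). *Fgfr4* had 0.53 ± 0.23 (limma, adjusted p = 0.209), which after scaling was 0.41 (adjusted p = 0.413). After scaling the list held 1 gene higher and 1 lower, where the shares of all genes were 6.63% and 7.40%.

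**Figure D5:**
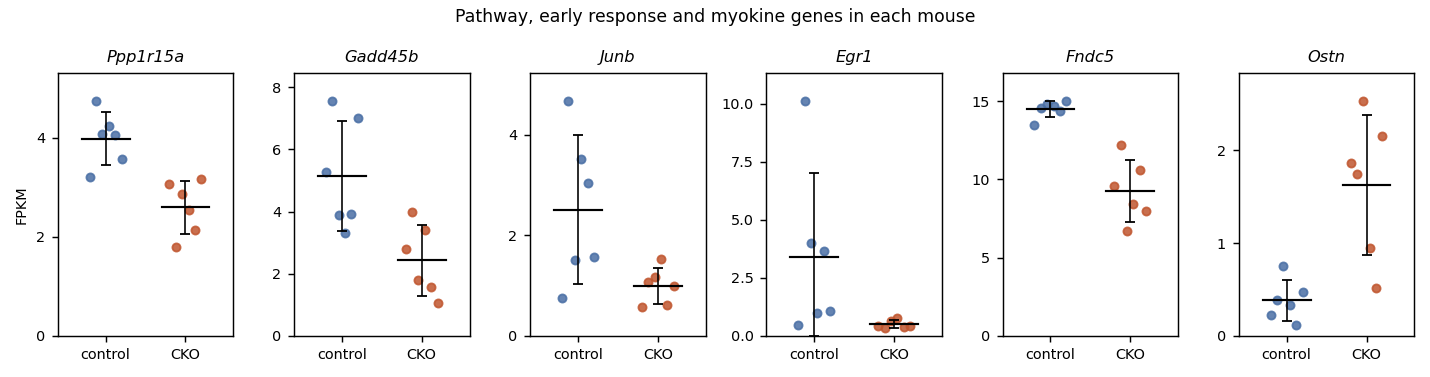
Level in FPKM (vertical axis, linear, a scale of its own for each gene) of 6 genes of the lists in each mouse. Points are mice, horizontal lines group means and bars the SD, cut at 0. *Ppp1r15a* and *Fndc5* do not overlap between groups, a trait not counted over all genes, while *Egr1* and *Junb* range widely among controls and little among CKOs.

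Immediate early genes, which respond within minutes to stimulation or handling of a tissue and here exclude *Atf3*, *Jun* and *Junb*, summed to a median of 89.2 FPKM (38.6 to 140.8) in controls and 53.7 FPKM (34.5 to 71.5) in CKOs (exact permutation test, p = 0.0693). Of 15 tested, 1 was higher and 2 lower, with a median of -0.31, where the shares of all genes were 18.1% and 1.76%. After scaling 0 were higher and 2 lower, with a median of -0.49, where the shares were 6.63% and 7.40%. *Egr1* was 0.452 to 10.1 FPKM in controls and 0.334 to 0.779 in CKOs (-1.92 ± 0.54, limma's adjusted p = 0.0778), *Btg2* 4.02 to 17.6 and 2.66 to 7.65 FPKM (-1.29 ± 0.34, adjusted p = 0.0623), and *Fosl2* had 0.37 ± 0.17 (adjusted p = 0.237). Control 1, which held the lowest sum of controls, also had the lowest *Ppp1r15a* of controls, but not the lowest *Atf4* (43.4 FPKM) or *Gadd45b* (5.26 FPKM). Control 2, which held the highest sum, had the highest *Ppp1r15a* and *Gadd45b* of controls and the lowest *Atf4* (34.2 FPKM). The part of immediate early genes in the results for *Atf4*, *Ppp1r15a* and *Gadd45b* was not tested.

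Markers of other cells were counted too. The 4 tested adipocyte markers of 6 were all positive. Past the unadjusted threshold were 3, where 18.1% of all genes were higher, and 2 after scaling, where 6.63% were. The list summed to a median of 1.24 FPKM (1.0 to 3.03) in controls and 3.69 FPKM (2.62 to 7.31) in CKOs (exact permutation test, p = 0.00649). *Retn* was at 0 in 4 controls, at 0.159 FPKM in control 1 and 0.147 FPKM in control 4, and at 0.147 to 1.23 FPKM in CKOs. All 6 CKOs but only 2 controls reached the 0.1 FPKM of the filter, so that *Retn* was tested through the group where it is high. Fibroblast markers had 2 of 6 higher, macrophage markers 0 of 10 and endothelial markers 0 of 6, where 18.1% of all genes were higher. After scaling the counts were 1, 0 and 0, where 6.63% of all genes were higher. Slow fiber markers summed to 30.2 to 74.3 FPKM in controls and 47.2 to 333.7 FPKM in CKOs, with CKO 1, CKO 3 and CKO 6 above all controls (exact permutation test, p = 0.126). Of these 8 markers 7 were higher by unadjusted P and 0 by adjusted P, where the shares of all genes were 18.1% and 2.02%. After scaling 6 were higher and 1, *Myl3*, was lower by unadjusted P, where the shares were 6.63% and 7.40%. Of the 12 general and fast fiber markers 3 were higher and 1 lower as deposited, where the shares of all genes were 18.1% and 1.76%. After scaling 3 were higher and 6 lower, where the shares were 6.63% and 7.40%. Their median was -0.20 as deposited, with 3 positive, and -0.39 after scaling, beside -0.36 and -0.54 for *Atf4*. The 3 higher were the fast myosins *Myh1*, *Myh2* and *Myh4*, and the 1 lower as deposited was skeletal actin, *Acta1*, with -0.33 (limma, adjusted p = 0.218) and -0.52 after scaling (adjusted p = 0.112). *Myh1*, the myosin of IIX fibers, was 872.5 to 1139 FPKM in controls and 1378 to 2630 FPKM in CKOs (1.05 ± 0.18, limma, adjusted p = 0.00734). *Atf4* was lowest in CKO 2 and CKO 3, which held slow fiber sums of 47.2 and 123.5 FPKM, and CKO 6, which held the highest sum, had the highest *Atf4* of CKOs at 38.7 FPKM. The part of these cell types and fiber types in the members' values was not tested.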

How the data were processed

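Total RNA from the tibialis anterior of 12 mice was depleted of ribosomal RNA and sequenced. The authors used bowtie2 and tophat for alignment, kept only uniquely mapped reads, and deposited FPKM from cufflinks, 1 value per gene symbol. Close paralogs, such as the myosin heavy chains, are uncertain for that reason. The submitters' processing notes name TopHat2 2.0.10, Cufflinks 2.1.1 and mm9. The study's own calls came from read counts, which were not used here.

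Each file held 23950 rows, of which 27 with a date as symbol were left out. log2(FPKM + 0.1) was compared with limma 3.58.1 (R 4.3.3), using a trended prior variance, group as the only term and Benjamini-Hochberg adjustment, for genes that reached 0.1 FPKM in 6 or more mice. Exact permutation tests ran over every assignment of the mice to groups, two-sided, on log2(FPKM + 0.1) or, for members outside the filter and sums over lists, on FPKM, with a smallest possible p of 0.00217. Median-ratio scaling used 12178 genes above 0 in every mouse, with size factors of 0.855 to 1.15. Depth in reads is unknown, so no counting interval was given, and relative depth was read from FPKM below 0.15. The code was tested on simulated data. The text names all members, *Smyd1*, up to 3 genes with the smallest unadjusted P below 0.05 in each pathway list and among immediate early genes, and list genes past the adjusted threshold, after scaling too for the pathway lists. From marker lists, *Retn* and *Myh1* are named for the adjusted threshold and the others were chosen after their values were seen. A gene that resembled *Atf4* across mice is not reported here. The members and gene lists were chosen with earlier results of these data known. Promoters came from RefSeq on GRCm38.p6, another build than that of the files, so no value was placed by coordinate.

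Alternatives were median-ratio scaling, quantile normalization, a pseudocount of 1, filters at 1 FPKM or none, no trend, sample weights, the replicate number as a block, and each mouse left out. A correction for transcript length and GC content (splines of 4 terms, GENCODE M21, 95.2% of genes, all 10 members) was added after the values were seen.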

Additional observations from a re-analysis of the deposited data

Results flagged for a closer look

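In 77 groups of 6 mice, for the members, *Smyd1* and the genes named from the lists, the highest or lowest mouse was compared with the nearest other mouse, and 7 values, from 5 mice, stood apart by more than Dixon's 95% critical value. Chance flags about 1 in 20 groups. Among the members, *Atf3* was 12.8 FPKM in control 6 against 0.957 to 4.25 FPKM in the other controls. *Chac1* was 6.17 FPKM in CKO 4 against 0.273 to 1.63 in the other CKOs. *Hspa5* was 56.0 FPKM in control 1 against 28.0 to 35.7 in the other controls, and *Fgfr1* was 4.90 FPKM in the same mouse against 2.71 to 3.39. *Tars*, the threonyl-tRNA synthetase, was 5.42 FPKM in CKO 2 against 8.69 to 8.95 in the other CKOs. *Egr1* was 10.1 FPKM in control 2 against 0.452 to 4.01, and *Retn*, the adipocyte hormone resistin, was 1.23 FPKM in CKO 4 against 0.147 to 0.485 in the other CKOs.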

How the results depend on the processing

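With median-ratio scaling, quantile normalization and the added length and GC correction, all genes gave 841, 810 and 775 genes higher and 939, 837 and 965 genes lower by unadjusted P, and by adjusted P 97, 101 and 99 higher and 89, 68 and 90 lower, against 2300, 224, 257 and 34 as deposited. No filter gave 170 higher (adjusted), and sample weights 3704 higher (unadjusted), 1400 higher and 115 lower (adjusted). Leaving out 1 mouse gave 1724 to 3416 higher and 193 to 320 lower (unadjusted), and 88 (without CKO 1) to 1075 (without control 1) higher and 18 to 69 lower (adjusted). The members lower at the unadjusted threshold were 3, 2 and 3 under those 3 corrections and 1 to 2 with a mouse left out. At the adjusted threshold they were 1 with scaling and 1 with the length and GC correction. *Hspa5* made 1 member higher without control 1, the fit in which 3416 of all genes were higher, against 0 in the other 11 fits. *Atf4* kept an unadjusted P below 0.05 in all 12 of these fits, at -0.41 to -0.29 (adjusted p 0.0957 to 0.247).

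Reversals were *Atf3*, with -0.17, -0.19 and -0.17 under the 3 corrections, -0.077 with a pseudocount of 1 and -0.23 to 0.49 with a mouse left out, *Hspa5*, with -0.072 with scaling and -0.058 with the length and GC correction, and *Nfe2l1*, with -0.0082 under the length and GC correction. The cause of these changes was not tested. Deviations of same-numbered mice correlated weakly (-0.09 to 0.16, mean 0.04, 2 of 6 over 0.1), beside a mean of -0.0088 for other pairs. Of the 12 mice, 5 were closest to their own number. Whether the numbers mark pairs was not tested. With the replicate block, all-gene counts were 2442 higher and 250 lower (unadjusted) and 272 and 40 (adjusted), no member's call changed, *Ppp1r15a* lost its adjusted call (adjusted p = 0.0829), and *Sesn1* (0.0253), *Gadd45a* (0.0478), *Fgfr1* (0.0478) and *Btg2* (0.0478) gained one. Precision of the low members is limited by their few fragments.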

Other observations

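Over the 12 mice, the 4 tested genes whose log2 level followed *Atf4* most closely were *Tnks2* (Pearson's r = 0.898), *Vps37c* (0.88), *Ttll7* (0.88) and *Optn* (0.877). These correlations are given as a description, they hold the group difference and any shift of whole libraries that the mice share, and they were picked as the highest of all genes tested.

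*Chac1* was looked at in the same way after its values were seen, because of its spread among mice. Its closest 5 were *Pfkfb3* (r = 0.89), *Nrip1* (0.868), *Bhlhe40* (0.823), *Klf9* (0.823) and *Ypel3* (0.822). In *Pfkfb3* the values were 3.20, 6.25, 3.32, 5.81, 3.60 and 6.98 FPKM in controls and 4.19, 2.1, 4.02, 7.59, 2.56 and 2.29 FPKM in CKOs. These genes were picked for their likeness to *Chac1*, so that they share its high and low mice by choice.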
